A study of Bos taurus with 48 samples.

Results

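The WNT pathway genes of the bovine endometrium described here were the array probes whose annotated gene is a WNT ligand, its processing enzyme PORCN, an R-spondin, the R-spondin receptor LGR5, a Frizzled or LRP receptor, a secreted antagonist, or a cytoplasmic or nuclear component of the pathway. The rule used gene names and no measured value, and it found 55 genes among 15976 gene names on the array, with 59 of the 21475 probes that are not controls. Of these, 39 genes with 40 probes were bright enough to be tested, among 14690 tested probes in all. Endometrium came from 22 lactating dairy cows of mixed New Zealand and North American Holstein-Friesian ancestry, all with synchronised oestrous cycles and all slaughtered on day 17. The 12 pregnant cows had received a grade 1 embryo on day 7, and the 10 cyclic cows were not pregnant. Caruncular endometrium, from the raised sites where the placenta attaches, and intercaruncular endometrium, the glandular tissue between them, were sampled from each cow, which gave 44 samples. The labels divided the pregnant cows into 7 with a large embryo (over 20 cm and over 75 mg) and 5 with a small embryo (under 20 cm and under 40 mg), and also into 6 labelled fertile and 6 labelled sub-fertile, a term that the labels do not explain. Whole pieces of tissue were measured, so fewer cells of a type and less RNA per cell cannot be told apart.

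WNT proteins are secreted lipid-modified ligands that bind Frizzled receptors together with the co-receptors LRP5 and LRP6. In the canonical branch this stops a complex built on AXIN and APC from destroying beta-catenin, which then acts with TCF and LEF factors in the nucleus. R-spondins strengthen the signal by protecting Frizzled receptors from removal through LGR receptors and ZNRF3, whereas Dickkopf proteins block LRP5 and LRP6, and SFRP proteins and WIF1 bind the ligands themselves. In the uterus the pathway is known for its part in gland formation, in the cycle of the endometrium and in preparation for implantation.

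Each value below is a log2 ratio of a sample (Cy5) to 1 pool of RNA from all samples (Cy3), so 0 is the level of the pool, and levels of different genes cannot be compared. Depending on the array, 68.8 to 84.0% of spots were well above background, and the median signal over background was lower in intercaruncular (15.4 in pregnant and 11.7 in cyclic cows) than in caruncular arrays (22.9 and 21.9). Slide 12 held 4 intercaruncular samples, all from pregnant cows labelled fertile. Slide 9 held 4 caruncular samples, all from cyclic cows, and had up to 7.60% of spots rejected. It was the only slide with saturated spots in the sample channel, 1151 over its 4 arrays. Values without slide 9 are given below for caruncular WNT2B, and without slide 12 for intercaruncular WNT5A, RSPO1, DKK1, FRZB and FZD7. No tissue comparison was fitted without these slides. For 4 caruncular samples hybridised again, the largest difference between both arrays for any tested WNT probe was 0.61. Of 8 conceptus marker probes none was bright enough to test, and the probe for interferon tau, the signal of the early ruminant conceptus, passed the brightness limit in 0 of 44 samples.

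Of the 40 tested probes, 32 passed the brightness limit in all 44 samples. Tested ligands were 7 of 16 probes, R-spondins 2 of 4, receptors 8 of 12, secreted antagonists 8 of 10, cytoplasmic components 9 of 10 and nuclear factors 4 of 4, with LGR5 and 1 of 2 PORCN probes. The probes for WNT1, WNT3, WNT3A, WNT7B, WNT8A, WNT9A, WNT9B, RSPO4, FZD9, DKK2 and the other PORCN probe passed the limit in 0 samples. The probe named DKK2 on the array is assigned to another gene, DUSP8, in the reference annotation. A further 8 probes passed it in too few samples: FZD10 in 17, RSPO2 in 14, FZD8 in 11, the second DKK3 probe in 7, WNT10A in 6, WNT4 in 5, and FZD5 and the second GSK3A probe in 1 each. RSPO2 passed in 9 of 10 intercaruncular cyclic samples and 3 of 12 intercaruncular pregnant samples, and in 2 of 10 and 0 of 12 caruncular ones. FZD10 passed in 8 of 10 cyclic and 2 of 12 pregnant caruncular samples, and in 6 of 10 and 1 of 12 intercaruncular ones. These are counts of detection, with no test.

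The first question of the design was how endometrium on day 17 differs between pregnant and cyclic cows. A pair of secreted regulators with opposite known actions, the R-spondin RSPO1 and the LRP antagonist DKK1, was up-regulated in pregnant cows in both tissues, while the ligand WNT5A was down-regulated in both. WNT2B and AXIN2 were down-regulated in caruncular tissue, and the nuclear factor TCF7L1 in intercaruncular tissue. In caruncular endometrium 5 of 40 probes passed the threshold (at least 1.5-fold and adjusted p under 0.05 by limma), against 9.99% of all tested probes. Of them 2 were higher in pregnant cows (5.77% of all) and 3 lower (4.21% of all). In intercaruncular endometrium 4 passed, against 7.24% of all, 2 higher (3.99% of all) and 2 lower (3.25% of all). The share of WNT probes that passed was thus near that of the whole array in each tissue. At an adjusted p under 0.05 and any size, 15 of 40 passed in caruncular tissue (26.9% of all probes) and 8 of 40 in intercaruncular tissue (20.3% of all). The WNT probes had a median change of -0.10 (caruncular) and -0.08 (intercaruncular), beside -0.04 and -0.01 over all tested probes.

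**Figure D1:**
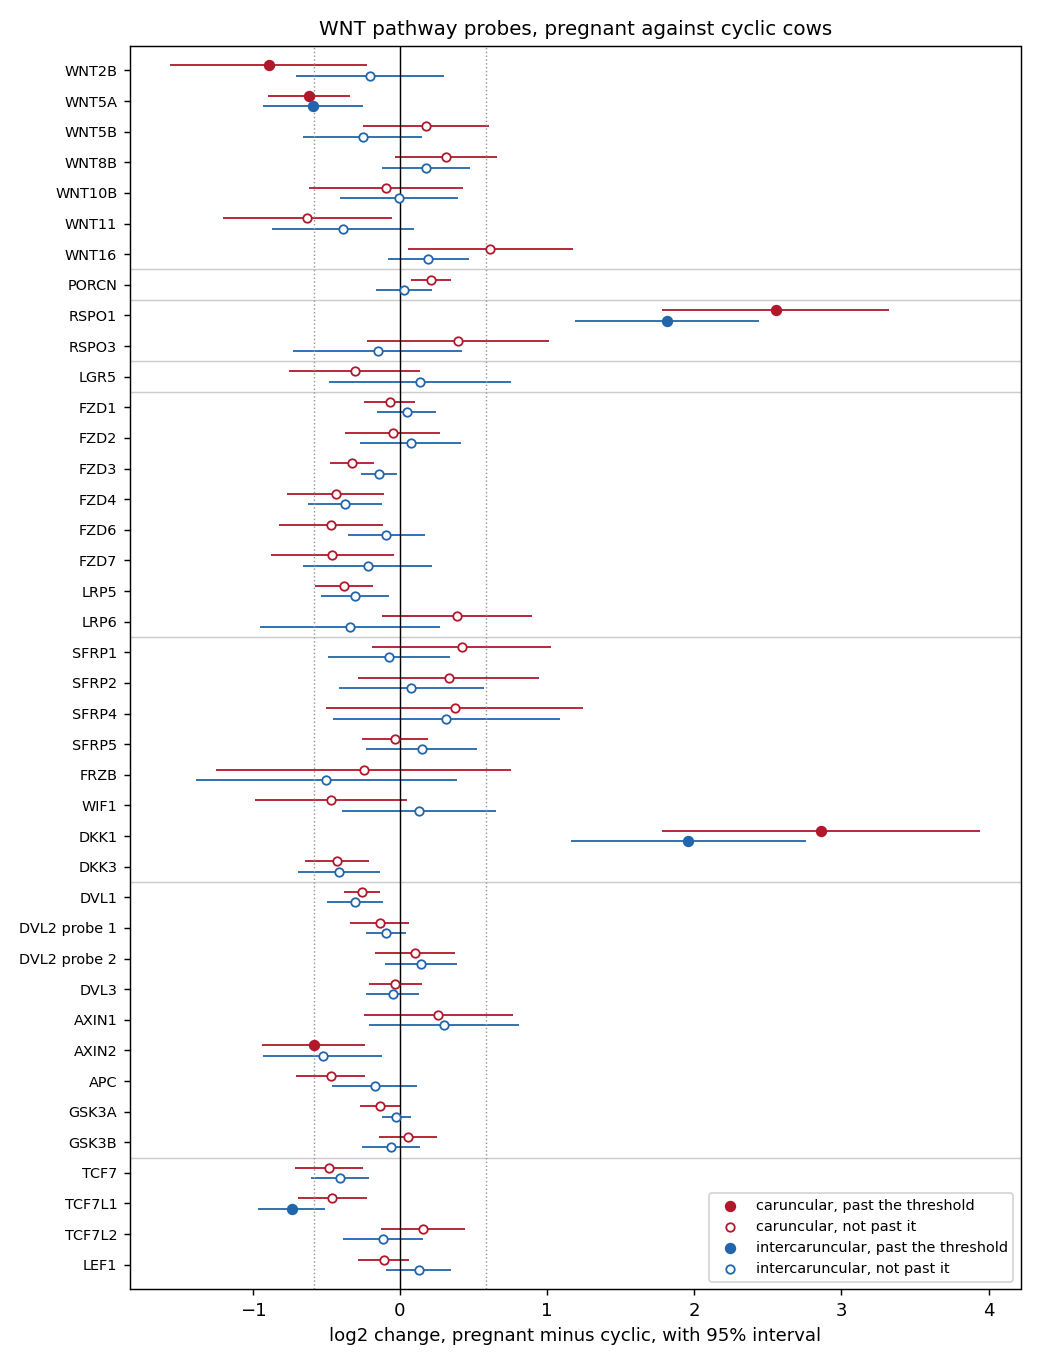
The change from cyclic to pregnant cows for the 40 tested WNT probes, ordered by role. The horizontal axis is the log2 difference of group means with its 95% confidence interval, for caruncular and intercaruncular endometrium, and the dotted lines mark 1.5-fold. RSPO1 and DKK1 lie to the right of all other probes in both tissues, and 33 caruncular and 36 intercaruncular changes lie within the dotted lines.

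RSPO1, a secreted protein that strengthens WNT signals at the receptor, rose in pregnant cows. In caruncular tissue its log2 ratio had a lowest, median and highest value of -2.64, -1.94 and -0.03 in 10 cyclic cows and of -0.80, 0.92 and 1.99 in 12 pregnant cows. All 12 pregnant samples lay above the cyclic mean and 9 lay above every cyclic sample. The difference was 2.55 ± 0.37 (SE), or 5.87-fold (limma, adjusted p = 3.45e-05). In intercaruncular tissue the values were -2.74, -2.08 and -0.86 in cyclic and -1.39, -0.20 and 1.01 in pregnant cows. Again 12 of 12 pregnant samples lay above the cyclic mean and 9 above every cyclic sample, a difference of 1.81 ± 0.30, or 3.52-fold (limma, adjusted p = 0.000243). RSPO3, the other tested R-spondin, did not pass in either tissue.

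DKK1, which binds LRP5 and LRP6 and keeps WNT ligands from using them, was the other gene that rose in both tissues. In caruncular tissue it spanned a wide range among cyclic cows, with a lowest value of -4.71, a median of -1.21 and a highest of 0.65, whereas pregnant cows had -0.74, 1.66 and 2.80. All 12 pregnant samples were above the cyclic mean and 9 above every cyclic sample. The difference was 2.86 ± 0.52 (SE), or 7.27-fold (limma, adjusted p = 0.00038), the largest change of any tested WNT probe in this tissue. In intercaruncular tissue the values ran from -4.61 through -3.01 to -1.27 in cyclic and from -2.68 through -0.63 to 0.49 in pregnant cows. Here 12 of 12 were above the cyclic mean and 8 above every cyclic sample, a difference of 1.96 ± 0.39, or 3.89-fold (limma, adjusted p = 0.00122).

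Among the ligands, WNT5A, best known for signals that do not use beta-catenin, fell by 0.62 ± 0.13 (SE) on the log2 scale in caruncular tissue of pregnant cows, a fold change of 1.53 (limma, adjusted p = 0.00192). Its lowest, median and highest values were -0.11, 0.64 and 0.94 in cyclic and -0.52, -0.05 and 0.38 in pregnant cows, so the groups overlapped, with 12 of 12 pregnant samples below the cyclic mean and 4 below every cyclic sample. In intercaruncular tissue the values were -0.78, 0.31 and 0.76 against -0.85, -0.47 and 0.23, and WNT5A fell by 0.59 ± 0.16, a fold change of 1.51 (limma, adjusted p = 0.0142). There 11 of 12 pregnant samples lay below the cyclic mean and 1 below every cyclic sample. Both fold changes lie close to the 1.5-fold limit. Without 1 cow at a time, WNT5A passed in 16 of 22 caruncular and 10 of 22 intercaruncular fits, and without the 4 samples of slide 12 the intercaruncular change was -0.44 (adjusted p = 0.128).

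WNT2B, a ligand of the canonical branch, fell by 0.89 ± 0.32 (SE) on the log2 scale in caruncular tissue, a fold change of 1.86 (limma, adjusted p = 0.0433). Cyclic values had a lowest of -1.56, a median of -0.18 and a highest of 1.08, and pregnant values -2.36, -1.29 and 0.10. Of the 12 pregnant samples 10 lay below the cyclic mean and 5 below every cyclic sample. Without 1 cow at a time it passed in 8 of 22 fits, and without slide 9 the change was -0.80 (adjusted p = 0.0768). In intercaruncular tissue the difference was -0.21 (adjusted p = 0.587). Neither WNT11 (-0.63, adjusted p = 0.0946) nor WNT16 (0.61, adjusted p = 0.0958) passed in caruncular tissue, though both differences were at least 1.5-fold. Caruncular WNT11 passed the brightness limit in 7 of 10 cyclic and 2 of 12 pregnant samples.

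No Frizzled or LRP receptor reached 1.5-fold in either tissue. In caruncular tissue 4 of 8 receptors had an adjusted p under 0.05 at smaller sizes, all lower in pregnant cows: FZD3 (-0.33), FZD4 (-0.44), FZD6 (-0.47) and LRP5 (-0.38). In intercaruncular tissue FZD4 was the only one (-0.37). LGR5, the receptor for R-spondins that marks epithelial stem cells in several organs, differed by -0.31 in caruncular and 0.14 in intercaruncular tissue and passed in neither. Of the antagonists other than DKK1, DKK3, a divergent Dickkopf family member, was lower by less than 1.5-fold in both tissues (-0.43 and -0.42, adjusted p under 0.05). The SFRP proteins, FRZB and WIF1 did not pass.

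AXIN2, a scaffold of the complex that destroys beta-catenin and itself a widely used WNT target, fell by 0.59 ± 0.17 (SE) on the log2 scale in caruncular tissue, a fold change of 1.501 (limma, adjusted p = 0.0135). The lowest, median and highest values were -0.27, 0.15 and 1.08 in cyclic and -1.24, -0.29 and -0.0044 in pregnant cows, with 12 of 12 pregnant samples below the cyclic mean and 6 below every cyclic sample. In intercaruncular tissue the difference was -0.53 (adjusted p = 0.0604), a change of nearly the same size. Without 1 cow at a time, caruncular AXIN2 passed in 12 of 22 fits, since its size lies at the 1.5-fold limit. Other members with smaller caruncular changes at an adjusted p under 0.05 were DVL1 (-0.26), APC (-0.47), TCF7 (-0.48), TCF7L1 (-0.46) and, upward, PORCN (0.21). In intercaruncular tissue they were DVL1 (-0.31) and TCF7 (-0.41). The 2 probes for DVL2 had opposite signs in each tissue and neither passed.

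TCF7L1, a TCF factor that mainly holds WNT targets silent, fell by 0.74 ± 0.11 (SE) on the log2 scale in intercaruncular tissue, a fold change of 1.67 (limma, adjusted p = 7.5e-05). Its lowest, median and highest values were 0.21, 0.65 and 0.81 in cyclic and -0.45, -0.24 and 0.50 in pregnant cows. All pregnant samples but 1 lay below every cyclic sample. In caruncular tissue the difference was -0.46 (adjusted p = 0.00476), short of 1.5-fold. No tested WNT probe separated pregnant from cyclic samples without overlap in either tissue, as 1.89% of all probes did in caruncular and 1.14% in intercaruncular tissue.

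**Figure D2:**
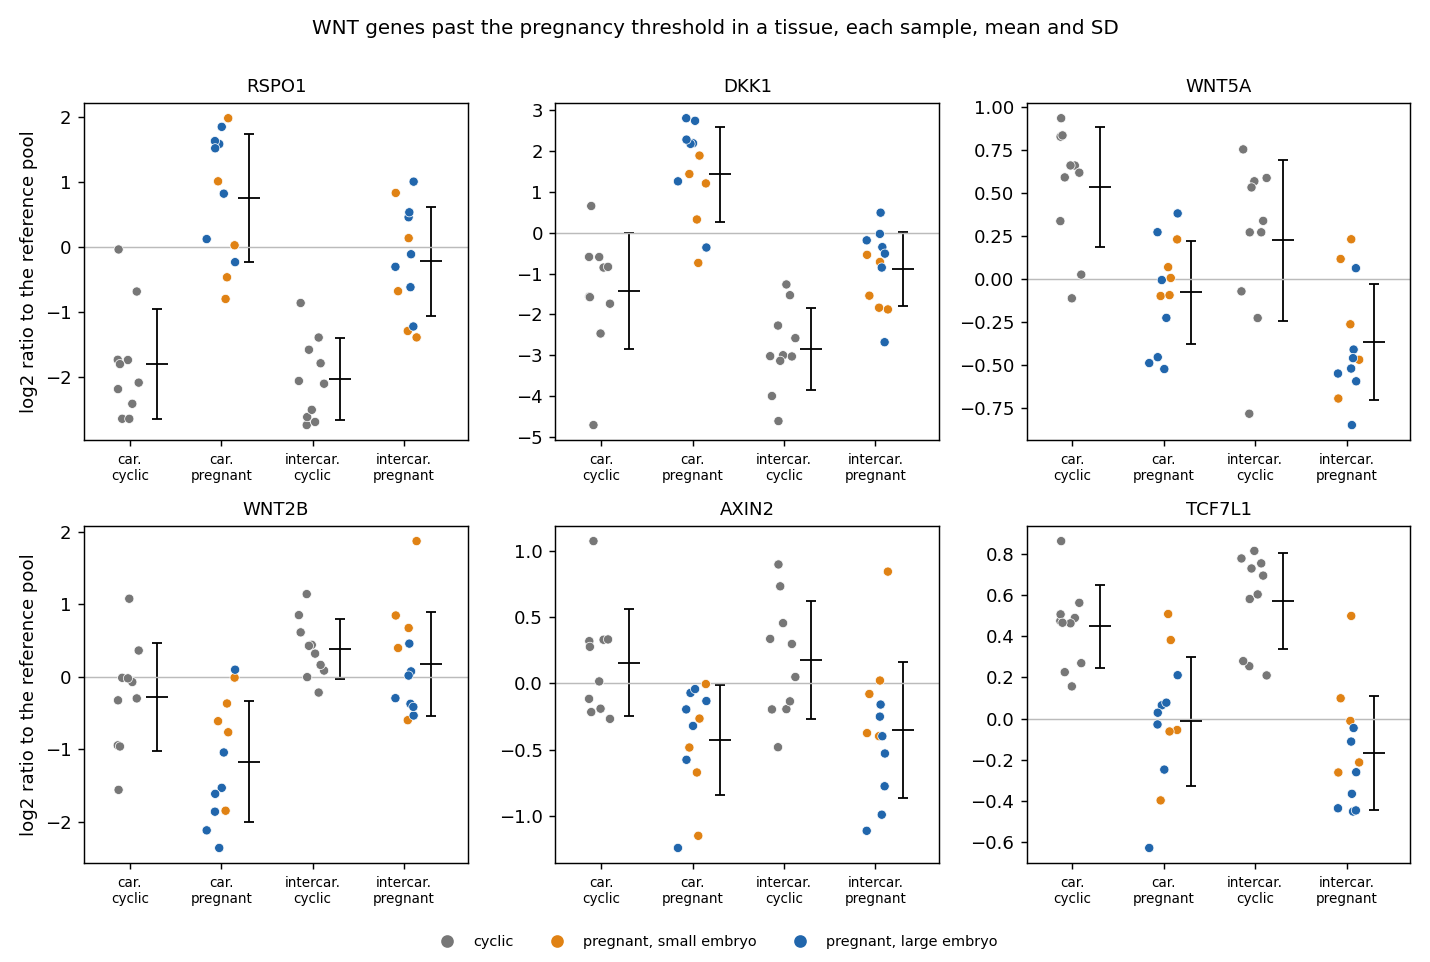
Values of the 6 WNT genes that passed the pregnancy threshold in at least 1 tissue, as log2 ratio to the pooled reference on the vertical axis. Each point is 1 cow, coloured by state and embryo size, the groups are cyclic and pregnant cows in caruncular and intercaruncular endometrium, and the bars show mean ± SD. All 12 pregnant cows lie above the cyclic mean for RSPO1 and DKK1 in each tissue, while the groups overlap for every gene.

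Few slides held both states, so the pregnancy changes were also taken within each scan and slide that did. These values are not independent, as slide 7 lies in scan 2, slide 10 in scan 3 and slide 2 in scan 1. The 4 caruncular samples hybridised again were in both scan 2 and scan 3. In caruncular tissue the RSPO1 change was 2.83 in scan 2 (11 pregnant and 9 cyclic arrays), 1.44 in scan 3 (2 and 4), 2.13 on slide 7 (3 and 1) and 2.39 on slide 10 (2 and 1). For DKK1 the same values were 2.95, 2.58, 1.53 and 3.16. WNT2B was lower within all of them (-1.15, -0.10, -0.42 and -0.85), while WNT5A (-0.62, -0.48, -0.68 and 0.07) and AXIN2 (-0.60, -0.18, -0.87 and 0.21) were near 0 or slightly higher on slide 10. In intercaruncular tissue DKK1 differed by 1.99 in scan 1 (11 and 9), 1.32 in scan 3 (1 and 1) and 1.36 on slide 2 (3 and 1), and TCF7L1 by -0.74, -0.72 and -0.39. RSPO1 differed by 2.04, -0.36 and 2.27 and WNT5A by -0.57, -0.69 and 0.53, so the single cow pair of scan 3 ran against the pooled direction for RSPO1 and slide 2 for WNT5A. Without slide 12 the intercaruncular changes were 1.35 for RSPO1 (adjusted p = 0.00422) and 1.59 for DKK1 (adjusted p = 0.0221).

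The difference of the pregnancy change between the tissues was tested directly, over all 44 samples. No WNT probe passed, against 0.0204% of all tested probes, and 1 of 40, FZD3 (-0.18), had an unadjusted p under 0.05 (7.37% of all). The caruncular change exceeded the intercaruncular one by 0.90 for DKK1 (95% interval -0.44 to 2.25, limma adjusted p = 0.873) and by 0.74 for RSPO1 (-0.26 to 1.73, adjusted p = 0.846). For WNT2B the difference was -0.69 (-1.52 to 0.15, adjusted p = 0.801) and for TCF7L1 it was 0.28 (-0.04 to 0.60, adjusted p = 0.778). Differences of at least 1.5-fold that did not pass were also seen for LRP6 (0.73) and WIF1 (-0.60). With the cow as a block, which pairs the tissues of an animal, the same differences had narrower 95% intervals, of 0.27 to 1.54 for DKK1 (adjusted p = 0.126), 0.25 to 1.23 for RSPO1 (adjusted p = 0.107), -1.34 to -0.037 for WNT2B (adjusted p = 0.261) and 0.0074 to 0.55 for TCF7L1 (adjusted p = 0.276). These intervals are not adjusted for the number of probes, and 0 WNT probes passed with the block, where 150 of all tested probes did.

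Other genes of the pathway were taken from lists of known parts. Of 15 tested receptors and regulators at the cell surface, 1 fell in caruncular tissue (4.21% of all probes did) and 3 in intercaruncular tissue (3.25% of all). Their median change was -0.25 and -0.21, beside -0.04 and -0.01 over all tested probes. KREMEN1, a receptor through which DKK1 removes LRP6 from the surface, fell in both, by 1.52 ± 0.26 (SE) on the log2 scale in caruncular (limma, adjusted p = 0.000173) and by 0.86 ± 0.19 in intercaruncular tissue (adjusted p = 0.00245). ZNRF3, the ligase that removes Frizzled receptors and that R-spondins inhibit (-0.85, adjusted p = 0.00547), and the proteoglycan GPC4 (-0.61, adjusted p = 0.00142) fell in intercaruncular tissue. Of 30 tested signal transducers 1 fell in each tissue, the corepressor AES in caruncular (-0.69, adjusted p = 0.00138) and the kinase CSNK1G1 in intercaruncular tissue (-0.80, adjusted p = 0.00461).

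Of 18 tested genes of planar cell polarity and calcium signalling, NFATC1 rose (0.61, limma adjusted p = 0.00205) and the cadherin CELSR2 fell (-1.14, adjusted p = 0.00688) in caruncular tissue, and 0 passed in intercaruncular tissue. Of 20 tested genes known as WNT targets, the Notch ligand JAG1 (-0.62 and -0.59) and the secreted protein WISP2 (-0.94 and -0.65) fell in both tissues. The growth factor FGF18 (-1.38, adjusted p = 0.0273) and the homeobox gene MSX1 (-1.27, adjusted p = 0.00194) fell in caruncular tissue, where FOSL1, a subunit of the AP-1 transcription factor, rose (0.96, adjusted p = 0.0284). For comparison, 5.77% of all tested probes rose and 4.21% fell in caruncular samples of pregnant cows by the same threshold. For intercaruncular samples these array-wide shares were 3.99% and 3.25%. The median of the target list was -0.06 in caruncular and -0.09 in intercaruncular tissue. That of the transducers was -0.07 and -0.05, and that of the polarity and calcium genes -0.0016 and -0.04.

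Markers of several cell types differed between the same groups. Among all tested probes 5.77% were higher and 4.21% lower in caruncular tissue of pregnant cows, and 3.99% and 3.25% in intercaruncular tissue. Of 8 tested smooth muscle and pericyte markers 6 fell in each tissue, with medians of -0.90 and -0.91. Their mean log2 ratio ran from -0.22 to 1.10 in cyclic and from -1.47 to 0.49 in pregnant caruncular samples, and from -0.72 to 0.74 and from -1.58 to -0.05 in intercaruncular samples. Of 8 endothelial markers 3 fell in each tissue, among them PECAM1, and of 11 leukocyte markers 3 rose in caruncular and 2 in intercaruncular tissue. Of 10 stromal markers 1 rose and 1 fell in caruncular tissue and 3 fell in intercaruncular tissue, and of 4 ciliated cell markers 2 fell in caruncular tissue. Of 11 epithelial markers 2 rose and 3 fell in caruncular tissue (median -0.36) and 3 rose and 1 fell in intercaruncular tissue (median -0.0055), with the keratin KRT7 lower in both (-2.07 and -0.75) and the cell adhesion gene CDH1 higher (1.02 and 0.71). Of 5 gland markers 1, GRP, fell in caruncular tissue (-0.88) and 0 passed in intercaruncular tissue. Of 11 proliferation markers 2 rose in each tissue, CCNB2 (2.03 and 1.44) and RRM2 (0.82 and 0.69), and 1 fell in caruncular tissue, CCNB1 (-1.36). The tested markers of these lists all passed the brightness limit, and their part in the changes of the WNT genes was not tested.

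The next comparison asked whether endometrium differed with the size of the embryo. In intercaruncular tissue the receptor FZD7 and the antagonist FRZB were lower in the 7 cows with a large embryo than in the 5 with a small one, and no WNT probe passed in caruncular tissue. The threshold here was an adjusted p under 0.05 at any size, which 2 of 40 WNT probes passed in intercaruncular tissue against 3.69% of all probes (2.12% lower in large), while 9 of 40 had an unadjusted p under 0.05 (21.6% of all). In caruncular tissue 0 of 14690 probes passed by limma, where 3 of 40 WNT probes had an unadjusted p under 0.05 against 6.9% of all.

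FZD7, a Frizzled receptor, was measured in intercaruncular tissue at -0.07, 0.67, -0.30, 0.13 and 0.47 in the cows Pregnant_932, Pregnant_9246, Pregnant_977, Pregnant_3807 and Pregnant_3956, which had a small embryo. The 7 large-embryo samples had a lowest, median and highest value of -0.91, -0.73 and -0.10, and 6 of them lay below every small-embryo sample. The highest of those 6 was at -0.304, only just below the lowest small-embryo value of -0.300. FZD7 was lower by 1.75-fold, a log2 change of -0.80 ± 0.19 (SE; 95% interval -1.22 to -0.39; limma, adjusted p = 0.0426). Cyclic cows spanned both groups, from -0.89 through -0.11 to 0.63. In caruncular tissue of the same cows FZD7 was at 0.02, 0.27, 0.10, 0.30 and -0.16 with a small embryo and at -1.08, -0.62 and -0.31 (lowest, median and highest) with a large one. Those groups did not overlap, which held for 0.306% of all probes, and the change was -0.77 ± 0.15, but its adjusted p was 0.418.

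FRZB, a secreted protein of the SFRP family that binds WNT ligands, was at 0.30, 0.61, -0.82, 0.65 and -0.85 in the same 5 small-embryo cows in intercaruncular tissue, in the same order. The large-embryo samples had -2.91, -1.96 and -0.54, with 6 of 7 below every small-embryo sample, and cyclic cows lay between at -1.78, -0.72 and 0.51. The change was -1.99 ± 0.43 (SE; 95% interval -2.92 to -1.05), or 3.96-fold (limma, adjusted p = 0.034). None of the 7 large-embryo samples reached the brightness limit for FRZB and 4 of them were well above background, so the size of this change rests on dim spots. With normexp background correction and loess it was -1.08 (adjusted p = 0.036). In caruncular tissue the change was -0.91 and did not pass (adjusted p = 0.777). Intercaruncular RSPO3 (-1.04, adjusted p = 0.0889), WNT2B (-0.79), WNT11 (-0.63), AXIN2 (-0.61) and DKK1 (0.71) differed by at least 1.5-fold without passing.

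**Figure D3:**
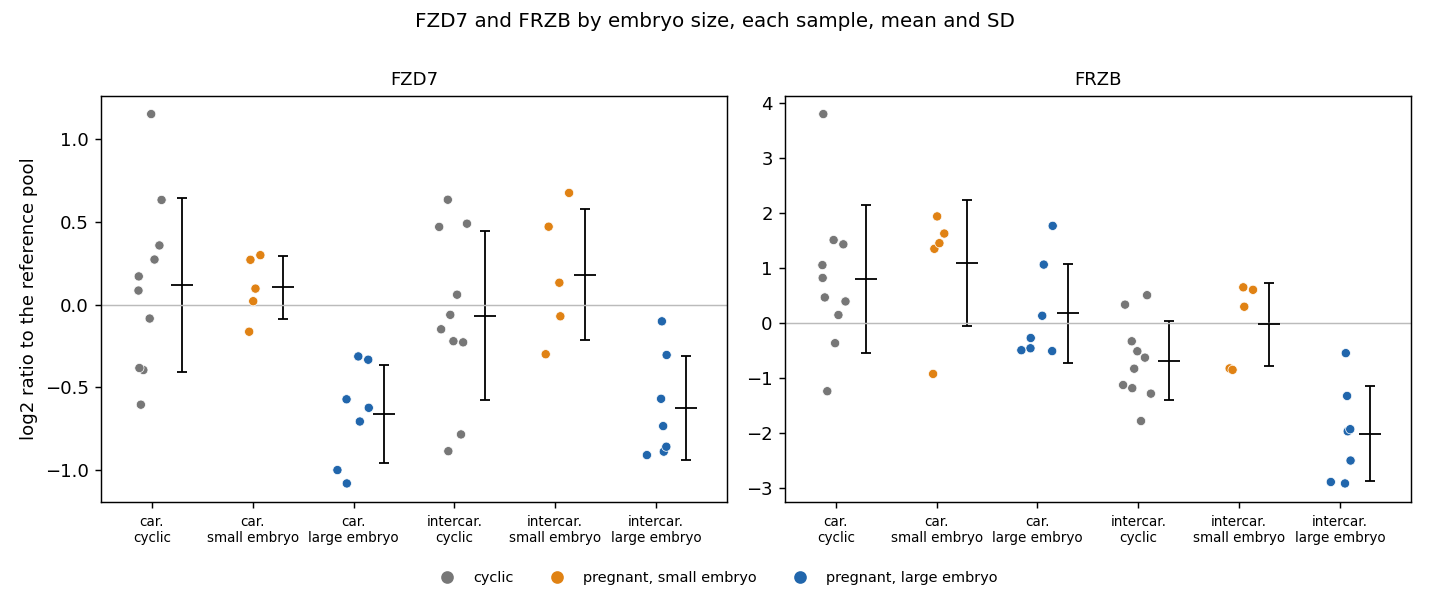
FZD7 and FRZB in cyclic cows and in pregnant cows with a small or a large embryo, as log2 ratio to the pooled reference on the vertical axis, in both tissues. Each point is 1 cow and the bars show mean ± SD. In caruncular tissue all 7 large-embryo values of FZD7 lie below all 5 small-embryo values, and in intercaruncular tissue 6 of 7 do for FZD7 and for FRZB. For intercaruncular FZD7 the highest of those 6 values is -0.304, only just below the lowest small-embryo value of -0.300.

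The embryo size results in intercaruncular tissue rest on few cows. Leaving out 1 of the 12 pregnant cows at a time, FRZB passed in 5 and FZD7 in 3 of 12 fits, with adjusted p up to 0.0972 and 0.112, and 0 to 3 WNT probes passed. The count was 0 without Pregnant_932, Pregnant_9246 or Pregnant_3807 (small embryo) and without Pregnant_1943, Pregnant_3803, Pregnant_3805 or Pregnant_3957 (large embryo), and 1 without Pregnant_3956 or Pregnant_9921. Slide 12 held 4 of the pregnant samples, and without it 0 WNT probes passed, with changes of similar size for FRZB (-2.21, adjusted p = 0.0792) and FZD7 (-0.96, adjusted p = 0.0917). LEF1, the nuclear partner of beta-catenin, was higher with a large embryo without overlap (3.35% of all probes) but did not pass (0.31, adjusted p = 0.135). DKK1 and RSPO1, the genes most changed by pregnancy, differed by 1.05 (95% interval -0.19 to 2.28) and 0.69 (-0.40 to 1.79) in caruncular tissue, where WNT11 (-1.01), WNT2B (-0.77) and SFRP2 (0.63) also differed by at least 1.5-fold and did not pass. Caruncular WNT11 passed the brightness limit in 0 of 7 large-embryo and 2 of 5 small-embryo samples, so its size rests on dim spots. In the intercaruncular comparison 1 of 10 stromal and 1 of 8 endothelial markers fell and 1 of 11 proliferation markers rose, where 3.69% of all probes passed. The part of these markers in it was not tested.

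No WNT probe passed between cows labelled fertile and sub-fertile in either tissue (limma, adjusted p under 0.05), against 0% of all probes in caruncular and 0.0477% in intercaruncular tissue. At an unadjusted p under 0.05 there were 7 of 40 in caruncular tissue (13.8% of all) and 12 of 40 in intercaruncular tissue (13.6% of all). The 12 were higher in fertile cows for WNT2B (0.76), WNT10B (0.69), RSPO1 (0.97), RSPO3 (0.86), FZD6 (0.38), FZD7 (0.61), SFRP2 (0.68), AXIN2 (0.55) and APC (0.48), and lower for PORCN (-0.29), LGR5 (-1.05) and AXIN1 (-0.31), with adjusted p between 0.202 and 0.341. DKK1 was also at least 1.5-fold higher in fertile cows (0.71, adjusted p = 0.505). APC, part of the complex that destroys beta-catenin, did not overlap between groups (1.42% of all probes), at 0.03, 0.15 and 0.69 in fertile and -0.71, -0.21 and -0.02 in sub-fertile cows (lowest, median and highest). No WNT probe did so in caruncular tissue (0.762% of all). In caruncular tissue the values of at least 1.5-fold were SFRP4 (1.25), DKK1 (1.01), RSPO1 (0.92), WNT11 (0.85) and FRZB (-0.60), none of which passed. WNT11 there passed the brightness limit in 2 of 6 fertile and 0 of 6 sub-fertile samples. Slide 12 held 4 of the 6 fertile and 0 of the sub-fertile intercaruncular samples. Without that slide, or with embryo size as a covariate, 0 WNT probes passed in intercaruncular tissue. The intercaruncular sizes above, and the separation for APC, were not taken without slide 12.

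The last comparison was between the tissues of the same cows. The ligands WNT11 and WNT10B were lower in caruncular tissue of cyclic and of pregnant cows, and the ligand WNT16, the receptor FZD2 and the antagonists SFRP1, FRZB and DKK1 were higher in both. In cyclic cows 8 of 40 probes passed (at least 1.5-fold and adjusted p under 0.05), against 12.2% of all probes, 6 higher in caruncular tissue (7.04% of all) and 2 lower (5.19% of all). In pregnant cows 13 of 40 passed, against 17% of all, 8 higher (9.06% of all) and 5 lower (7.92% of all). The median difference over WNT probes was 0.15 in cyclic and 0.23 in pregnant cows, beside -0.02 over all tested probes in each. All but 2 of the 22 cows had their caruncular sample in scan 2, 4 of these again in scan 3, and their intercaruncular sample in scan 1. Tissue and scan can therefore be separated only in the 2 cows whose tissues were both in scan 3. With the scan in the fit 0 WNT probes passed in either state, though several differences were as large.

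**Figure D4:**
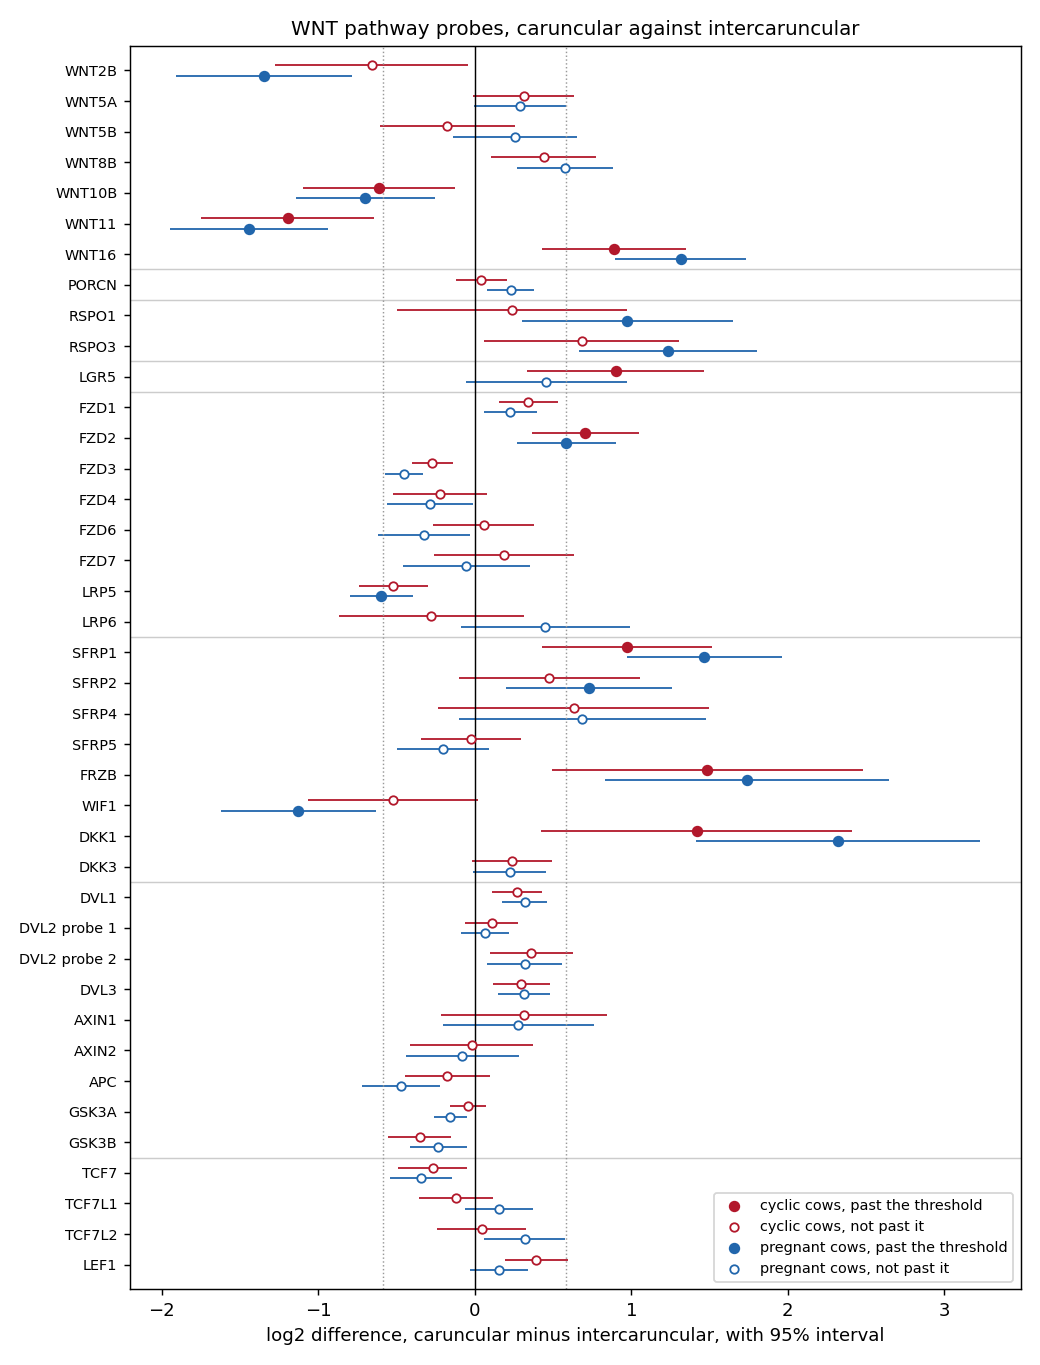
The difference between caruncular and intercaruncular endometrium for the 40 tested WNT probes, ordered by role, in cyclic and in pregnant cows. The horizontal axis is the log2 difference of group means with its 95% confidence interval, and the dotted lines mark 1.5-fold. DKK1, FRZB, SFRP1 and WNT16 lie to the right in both states and WNT11 to the left.

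Among ligands, WNT16 had a lowest, median and highest value of -1.24, 0.39 and 0.82 in caruncular and -1.58, -0.76 and -0.19 in intercaruncular tissue of cyclic cows. It was 1.85-fold higher in caruncular tissue (0.89 ± 0.23, SE; limma, adjusted p = 0.0021), in 9 of 10 cows. In pregnant cows the values were -0.53, 0.76 and 1.84 against -0.99, -0.65 and -0.18, a 2.49-fold difference (1.31 ± 0.21, adjusted p = 2.43e-06) with the same sign in 11 of 12 cows. The ranges overlapped in both states. In the 2 cows with both tissues in scan 3 the difference was 1.47 (Pregnant_9790) and 0.81 (the cyclic cow Non-Pregnant_9786).

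WNT11, another ligand known mainly for signals without beta-catenin, ran the opposite way. In cyclic cows it was at -1.42, -0.96 and -0.19 in caruncular and -0.38, 0.32 and 1.18 in intercaruncular tissue, 2.29-fold lower (-1.20 ± 0.27, SE; limma, adjusted p = 0.000726) in 10 of 10 cows. In pregnant cows it was at -2.52, -1.74 and 0.34 against -1.47, -0.09 and 1.14, 2.71-fold lower (-1.44 ± 0.25, adjusted p = 1.06e-05) in 12 of 12 cows. The brightness limit was passed in 7 of 10 and 2 of 12 caruncular samples, so the lowest values are of dim spots. Within scan 3 the differences were -0.19 and -1.27.

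WNT10B was lower in caruncular tissue by a smaller step, 1.53-fold in cyclic cows (-0.61, limma adjusted p = 0.0417) and 1.62-fold in pregnant cows (-0.70, adjusted p = 0.00815). WNT2B was 2.54-fold lower in caruncular tissue of pregnant cows (-1.35 ± 0.28, adjusted p = 0.000128), in 11 of 12 cows, and 1.58-fold lower in cyclic cows without passing (-0.66, adjusted p = 0.0879), though it passed with the cow as a block (adjusted p = 0.0204). For both genes the pregnant cow of scan 3 had the opposite sign (0.77 for WNT10B and 0.51 for WNT2B), while the cyclic cow had the pooled sign (-1.04 and -2.17).

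Both tested R-spondins were higher in caruncular tissue of pregnant cows, RSPO1 by 1.97-fold (0.98 ± 0.33, SE; limma, adjusted p = 0.0146) in 12 of 12 cows and RSPO3 by 2.35-fold (1.23 ± 0.28, adjusted p = 0.000432) in 10 of 12 cows. RSPO2, too dim to test, passed the brightness limit in 0 of 12 caruncular and 3 of 12 intercaruncular samples of pregnant cows. In cyclic cows the RSPO3 difference was 0.68 (adjusted p = 0.0792) and the RSPO1 difference 0.24, and neither passed, while RSPO3 passed with the cow as a block (adjusted p = 0.0448). Within scan 3 RSPO3 differed by 2.40 and 2.45 and RSPO1 by 0.99 and 0.82. LGR5 was 1.87-fold higher in caruncular tissue of cyclic cows (0.90 ± 0.28, adjusted p = 0.0104), with 0.04, 0.48 and 0.89 against -1.13, -0.39 and 0.42. Its difference was -1.20 in the pregnant and -0.0024 in the cyclic cow of scan 3, so the pooled direction was not seen within that scan.

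Of the receptors, FZD2 was higher in caruncular tissue, 1.63-fold in cyclic cows (0.71 ± 0.17, SE; limma, adjusted p = 0.00121; 10 of 10 cows) and 1.501-fold in pregnant cows (0.59 ± 0.16, adjusted p = 0.00199; 12 of 12 cows). LRP5 was 1.51-fold lower in caruncular tissue of pregnant cows (-0.60 ± 0.10, adjusted p = 5.86e-06; 11 of 12 cows), but within scan 3 it differed by 0.26 and 0.09, with the other sign. FZD3 was the only tested WNT probe without overlap between the tissues, in pregnant cows (1.25% of all probes), from -0.73 to -0.15 in caruncular and from -0.08 to 0.36 in intercaruncular tissue, and its difference was under 1.5-fold.

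The largest tissue difference among the WNT probes was that of a secreted antagonist in each state, FRZB in cyclic and DKK1 in pregnant cows. FRZB was 2.80-fold higher in caruncular tissue of cyclic cows (1.49 ± 0.49, SE; limma, adjusted p = 0.016) and 3.34-fold higher in pregnant cows (1.74 ± 0.45, adjusted p = 0.00153), and SFRP1 was 1.96-fold (0.97 ± 0.27, adjusted p = 0.00416) and 2.76-fold higher (1.47 ± 0.25, adjusted p = 5.91e-06). FRZB ran from -1.24 through 0.65 to 3.81 and from -1.78 through -0.72 to 0.51 in caruncular and intercaruncular tissue of cyclic cows. Both genes kept that sign in scan 3, FRZB at 3.70 and 3.47 and SFRP1 at 1.36 and 1.27. Intercaruncular FRZB passed the brightness limit in 8 of 10 cyclic and 4 of 12 pregnant samples.

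DKK1 was 2.67-fold higher in caruncular tissue of cyclic cows (1.42 ± 0.49, SE; limma, adjusted p = 0.0216; 9 of 10 cows) and 5.00-fold higher in pregnant cows (2.32 ± 0.45, adjusted p = 5.1e-05; 12 of 12 cows), and the scan 3 cows gave 2.32 and 2.42. By median, cyclic intercaruncular samples were lowest (-3.01) and pregnant caruncular samples highest (1.66), with cyclic caruncular (-1.21) and pregnant intercaruncular samples (-0.63) between them and overlapping. SFRP2 was 1.66-fold higher in caruncular tissue of pregnant cows (0.73 ± 0.26, adjusted p = 0.0205). WIF1, which binds WNT ligands, was 2.18-fold lower there (-1.13 ± 0.25, adjusted p = 0.00024) in 12 of 12 cows, at -2.19, -1.53 and -0.35 against -1.02, -0.06 and 0.50, and differed by -1.62 and -1.31 within scan 3. SFRP4 was at least 1.5-fold higher in both states and passed in neither (0.63 and 0.69), but in both with the cow as a fixed block (adjusted p = 0.0408 and 0.0138).

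**Figure D5:**
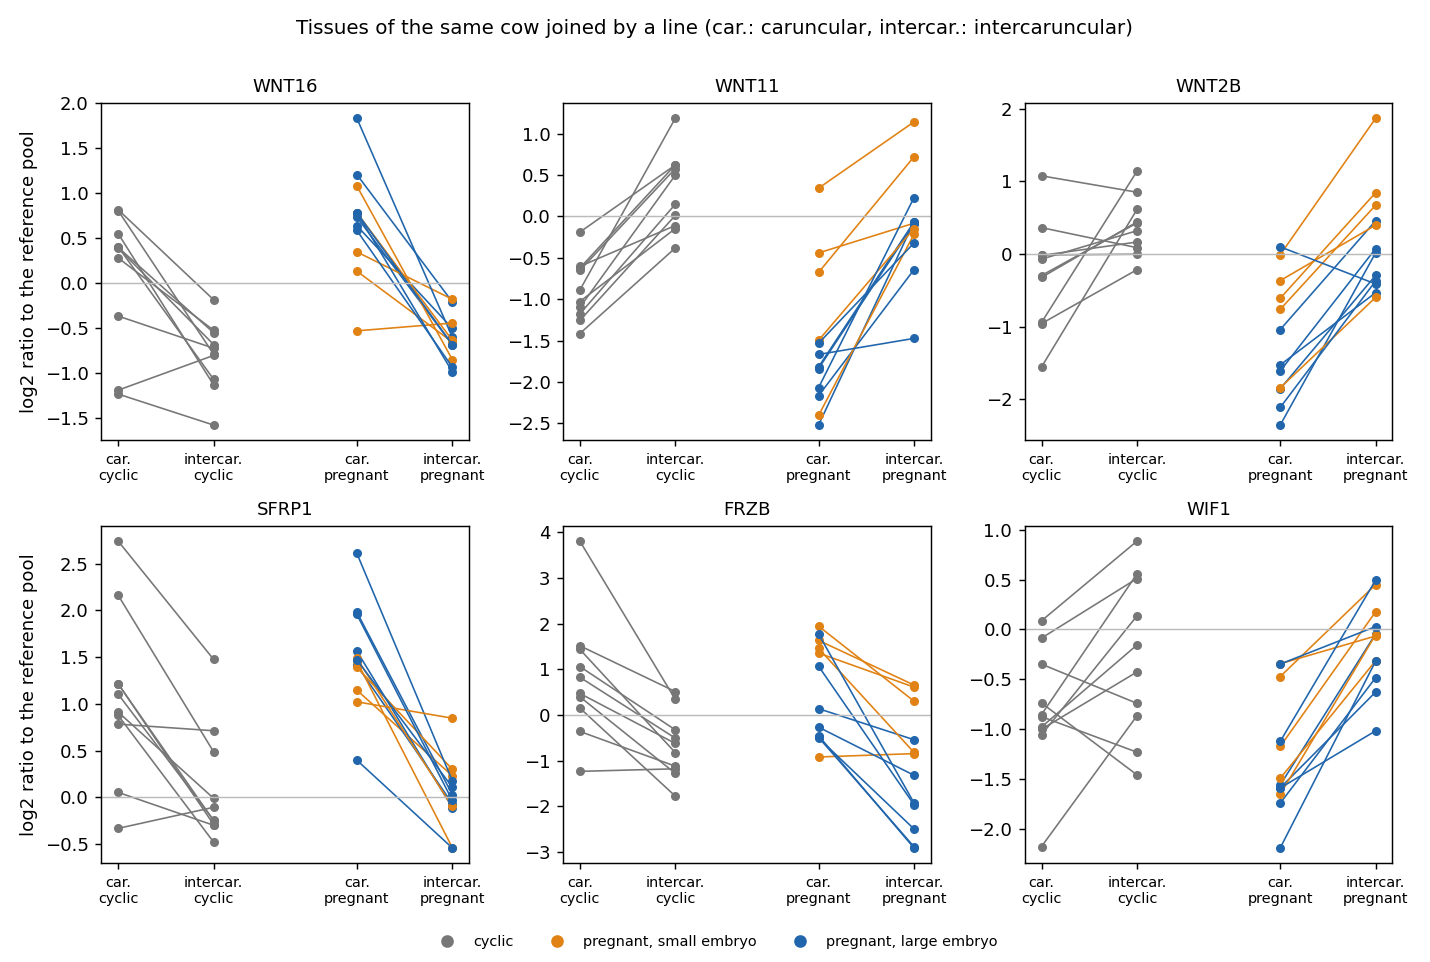
Values of WNT16, WNT11, WNT2B, SFRP1, FRZB and WIF1 in both tissues of each cow, as log2 ratio to the pooled reference on the vertical axis, with lines joining the tissues of a cow, for cyclic and pregnant cows. Colours mark cyclic cows and pregnant cows with a small or large embryo, WNT11 is lower in caruncular tissue in all 22 cows, and WIF1 in all 12 pregnant cows.

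Cytoplasmic and nuclear components did not pass between the tissues in either state. Among the other pathway genes, 5 of 15 surface genes passed in cyclic and 7 of 15 in pregnant cows: the receptors RYK (0.73 and 0.77) and PTK7 (1.14 and 1.39) were higher in caruncular tissue in both, and KREMEN1 (-0.84 and -1.50) and the R-spondin receptor LGR4 (-0.78 and -1.22) lower. Known targets were divided, with MYC (1.37 and 1.34) and EPHB2 (0.75 and 1.02) higher and SP5 (-1.14 and -1.78) and PPARD (-1.15 and -0.92) lower. Of 30 transducers 4 were higher and 1 lower in cyclic cows and 5 and 1 in pregnant cows, and of 18 polarity genes 2 were higher and 1 lower, and 2 and 2. Over all tested probes 7.04% were higher and 5.19% lower in cyclic cows, and 9.06% and 7.92% in pregnant cows. These named genes were chosen after their values were seen.

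Epithelial and stromal markers differed between the tissues too. Over all tested probes 7.04% were higher and 5.19% lower in caruncular tissue of cyclic cows, and 9.06% and 7.92% in that of pregnant cows. All 4 tested ciliated cell markers were lower in caruncular tissue in both states (medians -1.39 and -2.06), as were 3 of 5 gland markers in each (medians -0.69 and -1.23) and 3 and then 7 of 11 epithelial markers, 1 of which was higher in pregnant cows. Of 10 stromal markers 3 were higher in caruncular tissue of cyclic and 7 in that of pregnant cows (medians 0.51 and 0.84). The mean log2 ratio of the stromal list ran from -0.23 to 1.10 in caruncular and from -0.50 to 0.20 in intercaruncular tissue of pregnant cows, and that of the ciliated list from -3.21 to -0.42 and from -0.75 to 0.77. The part of these cell types in the WNT tissue differences was not tested.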

How the data were processed

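Each sample (Cy5) was hybridised with a pool of all samples (Cy3), 48 arrays for 44 samples, and the authors deposited scanner files of Agilent Feature Extraction 9.5.3.1. The deposited log10 ratios, already corrected for background and dye, were converted to log2. Rejected spots were left out, spots of a probe and repeat arrays were averaged, and arrays were centred on their median, which was 0 on each. By the deposited intensity values, a probe was tested where its processed sample signal was at least 80 and at least 50% of its spots were well above background in at least 22 samples. The number of arrays limits the precision.

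Groups were compared with limma 3.58.1 in R 4.3.3, with Benjamini-Hochberg adjustment over all 14690 tested probes and a threshold of 1.5-fold and an adjusted p of 0.05 for pregnancy and tissue, and that adjusted p alone otherwise. Tissue was fitted over all samples without the cow. Cows pair the tissues, which came from the same animal, and the deviations of their samples correlated at 0.11 to 0.87 in 22 of 22 cows.

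The members, pathway lists and marker lists were chosen with earlier results of these data known. WNT probes were described in full where they passed a threshold, by name where not tested or at least 1.5-fold, and otherwise in counts. The deposited series table of log2 ratios (17876 probes, lowest correlation with the scanner values 0.98, column medians -0.03 to 0.06, centring not given in the sources used here) was an alternative, beside other normalizations, filters, blocks, a t-test named in the methods and leaving out each cow. The reference table matched 44 of 59 WNT probes. The fit was tested on simulated data with independent noise and no cow, slide or scan effect. That test does not cover the pairing of the tissues.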

Additional observations from a re-analysis of the deposited data

Results flagged for a closer look

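AXIN2 in caruncular endometrium of cyclic cows had 1 cow far from the other 9. The cow Non-Pregnant_1940 was at 1.08 and the nearest cow at 0.33, a gap of 0.553 of the whole range of the group, above the limit of 0.466 for 10 samples. Among the 27 groups of called WNT genes examined in this way it was the only 1, and chance marks about 1 in 20. Without it the pregnancy change of AXIN2 was -0.48 (limma, adjusted p = 0.0255), under 1.5-fold, and 3 rather than 5 caruncular WNT probes passed, since WNT2B also missed (adjusted p = 0.0665).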

How the results depend on the processing

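DKK1 and RSPO1 passed in caruncular tissue under every pregnancy alternative except the slide as a fixed block, and in each of the 22 fits without 1 cow. The caruncular count of 5 WNT probes became 2 with normexp background correction and loess, 0 with the slide as a fixed block (58 of all probes), 3 with arrays centred on the tested probes (an alternative chosen after seeing the data, which left WNT2B at an adjusted p of 0.0517 and AXIN2 under 1.5-fold) and 2 to 6 without 1 cow. It was 3 without Non-Pregnant_1940, Non-Pregnant_1950, Non-Pregnant_9813, Pregnant_1943 or Pregnant_977 and 2 without Non-Pregnant_2952, Pregnant_3803 or Pregnant_9921. The intercaruncular count of 4 became 7 with no filter and 7 in the deposited series table, which added FZD10, FZD9 and RSPO2, all dim, 1 with the slide as a fixed block (128 of all), where WNT5A turned to 0.53 (adjusted p = 0.578), and 3 to 5 without 1 cow. The slide block gives the pregnancy change of slide 7 alone in caruncular and of slide 2 alone in intercaruncular tissue, each with 3 pregnant cows and 1 cyclic cow, so it rests on 1 cyclic cow a tissue. For embryo size the intercaruncular count of 2 became 0 with no filter, 0 by the methods' t-test, 1 in the deposited table, 1 with the slide as a fixed block, 0 without slide 12 (chosen after seeing the data) and 0 to 3 without 1 cow. The counts of 0 for embryo size in caruncular tissue and for fertility ran from 0 to 0 without 1 cow. The tissue counts of 8 and 13 became 0 and 0 with the scan as a fixed block, where LGR5 turned to -0.37 (adjusted p = 0.999) and LRP5 to 0.14 (adjusted p = 0.931). The other called probes kept their direction there, some at least as large (in cyclic cows FRZB 3.44, DKK1 1.91, SFRP1 1.07 and WNT16 0.93, in pregnant cows FRZB 3.73, DKK1 2.83, RSPO3 2.72, WIF1 -1.77, SFRP1 1.56, WNT16 1.35, RSPO1 1.28 and SFRP2 0.83) and others smaller (in cyclic cows WNT11 -0.62, FZD2 0.45 and WNT10B -0.10, in pregnant cows WNT2B -1.17, WNT11 -0.85, FZD2 0.32 and WNT10B -0.18). With the scan as a block the tissue difference rests on the 2 cows whose tissues were both in scan 3. The count over all probes with that block is not given here. The lost calls can therefore not be read as particular to the WNT probes. With the cow as a replicate block, which pairs the tissues, the counts were 11 (fixed) and 10 (random) in cyclic cows, with all 8 calls kept and RSPO3, WNT2B and (fixed block alone) SFRP4 added, and 14 in pregnant cows, with all 13 kept and SFRP4 added. The difference of the pregnancy change between tissues stayed at 0 WNT probes with the cow block. The block changed no other count by over 1.5 times. The causes were not tested. Dim probes, among them FRZB, WNT11 and those not tested, limit what can be said of low levels.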
